A study of Mus musculus with 8 samples.

Results

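Homing chemokines are secreted guidance proteins, and 5 of them were followed here with the 5 receptors that bind them: Ccl21a and Ccl19 with Ccr7, Cxcl12 with Cxcr4 and Ackr3, Cxcl13 with Cxcr5, and Ccl25 with Ccr9. The members were chosen by symbol. The 10 symbols matched 12 of the 32285 gene rows that all 8 libraries share (32245 distinct symbols), because Ccl21a and Ccl19 each have a second row. The second Ccl21a row held 1 unique molecular identifier (UMI, a tag that marks a single captured RNA molecule) in the small intestine cells and 1 in a small intestine section, and the second Ccl19 row held 0. The values below add the rows of a symbol.

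Chemokines bind seven-pass receptors on passing leukocytes and stromal cells and draw them along a gradient. CCL21 and CCL19 guide CCR7-bearing lymphocytes and mature dendritic cells into lymphatic vessels and T cell zones, and CXCL13 draws CXCR5-bearing B cells into follicles. CXCL12 is a ligand of both CXCR4, which signals through G proteins, and ACKR3, an atypical receptor that takes the ligand up and removes it. CCL25, made by small intestinal epithelium and thymus, is the ligand of CCR9 on gut-homing lymphocytes and IgA plasma cells.

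The study's title concerns signals between lymphatic vessels and intestinal stem cells. All samples were of C57BL/6 strain, and mice carrying Lgr5-eGFP-ires-CreERT2 on that background were also used for the sorts. Small intestinal organoids at passage 1 were grown alone (CTRL) or with a partner that the labels do not name (COCULTURE), with 16 wells pooled for each. The series text also says that both organoid samples were combined for sequencing, yet each has its own matrix and 0 barcodes are shared, so each matrix was taken as 1 library, and the ratios between them rest on that reading. Small and large intestine each gave 1 library of dissociated cells, in which live cells were mixed with sorted LGR5+ stem cells and CD31+ PDPN+ LYVE1+ lymphatic endothelial cells, so that shares of cell classes reflect the sort. Each intestine also gave 2 sections of 10 µm on 10x Visium slides, technical duplicates in which each spot covers a small region that can hold several cells. With 1 cell library per group no test between groups was possible there, and the spread between duplicate sections is technical, so no p-value is given. Counting intervals are 95%, from exact Poisson or Clopper-Pearson limits, and cover counting error only.

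The cell libraries held 46236011 to 142501907 UMIs and the sections 24356162 to 43833127. The filters kept 2695 cells of the small intestine, 5882 of the large intestine, 1028 of the cocultured and 538 of the control organoids. In the small intestine library 5497 of 8842 barcodes had more than 20% mitochondrial UMIs, against 2060 of 8646 in the large intestine library. The tissue libraries shared 25 barcodes and the organoid libraries 0. Cells were clustered without the 10 members, and clusters were named from marker genes as "X-like". The small intestine library had 203 Paneth-like cells, led by defensins, and no large intestine cluster took that name. The large intestine library contained an unnamed cluster of 317 cells led by Pbsn and Tgm4, genes of other organs, with a median of 1311 UMIs per cell. It was kept in the totals of epithelial and unnamed clusters. In both tissues the lymphatic endothelial-like clusters were led by Mmrn1, Lyve1 or Reln.

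Levels are in CPM, the usual depth-scaled unit: the UMIs of a gene summed over the cells of a class and divided by all UMIs of the class. Classes of at least 20 cells were ranked. Ccl21a, Cxcl12, Ackr3 and Cxcl13 were highest in endothelium or fibroblasts, Ccr7, Cxcr4 and Cxcr5 in B-like cells, Ccl25 in the epithelium and Ccr9 in T-like cells. A member was counted as set apart when its highest class was at least 2-fold above the next and held at least 20 UMIs. In the small intestine 8 of the 9 members with enough UMIs to rank met this, and 26.6% of 10021 ranked genes did. Of these 8, Cxcl13, Ccl25 and Ccr9 fell short of it under some other cell filters or clusterings, with log2 gaps as low as 0.18, -0.0119 and 0.05 against 3.86, 1.63 and 2.18. With a mean of the CPM of each cell Ackr3 fell just short (0.95) and Ccr7 passed (1.10). The large intestine count was 6 of 8, with 25.6% of 9974 ranked genes. Ccr7 in the small intestine and Ackr3 and Ccl25 in the large intestine did not meet it.

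**Figure D1:**
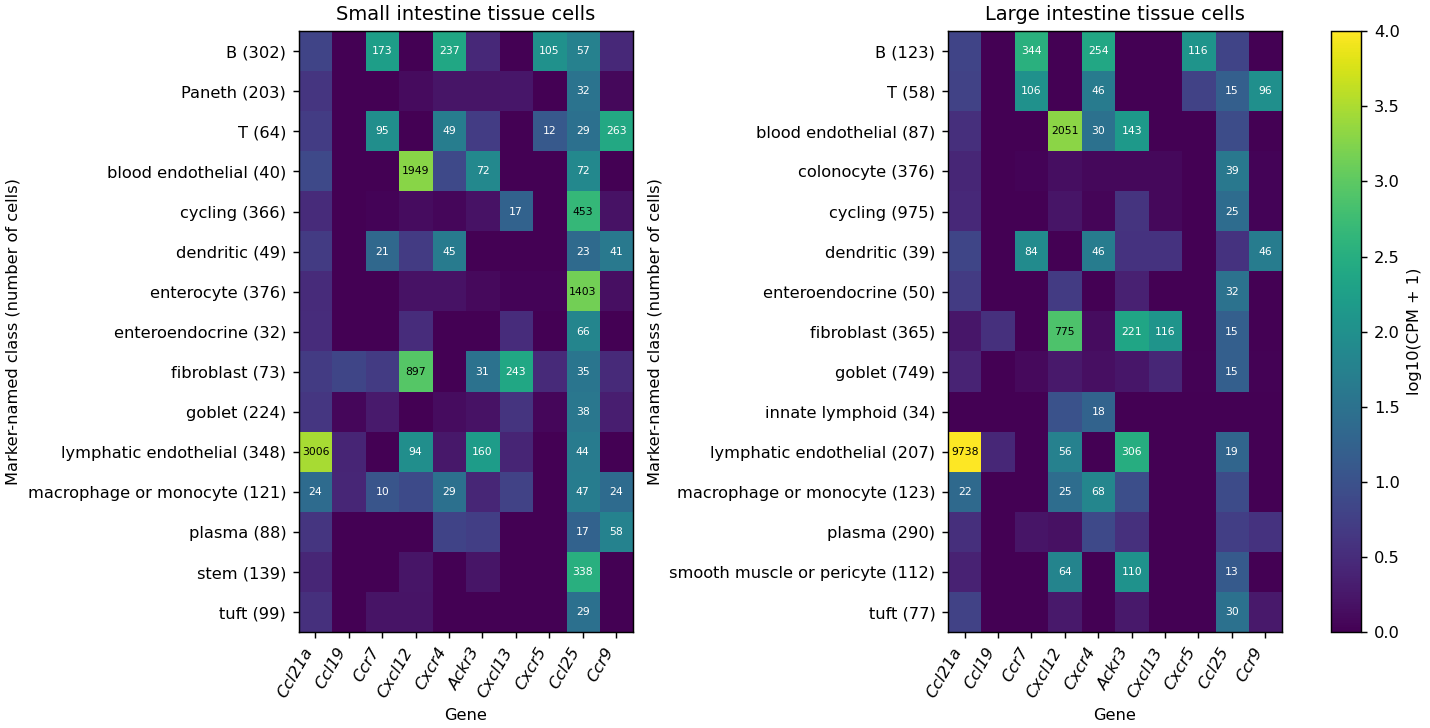
Level of each member in each cell class of the small and large intestine cell libraries, shown as the base-10 logarithm of CPM plus 1 (colour scale). Ccl21a stands out in lymphatic endothelial-like cells of both tissues (3006 and 9738 CPM) and Ccl25 in small intestinal enterocyte-like cells (1403 CPM), while Ccl19 is near 0 in every class.

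Ccl21a (ENSMUSG00000094686, chr4:42772860-42773991 in GRCm38, the build called mm10 in the submitters' processing notes) encodes a form of CCL21. Among the 4 ligands with enough UMIs to rank it had the widest gap between its highest and its next class in both tissues. In lymphatic endothelial-like cells its level was 3006 CPM in the small intestine (2910 to 3104, 3717 UMIs in 348 cells) and 9738 CPM in the large intestine (9483 to 9998, 5538 UMIs in 207 cells). The next class was macrophage-like cells, at 24.2 CPM with 14 UMIs and at 22.4 CPM with 22 UMIs, and the gap was 6.95 and 8.76 on the log2 scale. The unthinned shares of cells with a Ccl21a UMI were 84.2% and 85.5%, at median depths of 3440 and 2292 UMIs. Thinning to 2000 UMIs left out the shallower cells and kept 258 of the 348 small and 116 of the 207 large intestinal cells. Of those kept, 238 or 92.2% (88.3 to 95.2) and 112 or 96.6% (91.4 to 99.1) had a Ccl21a UMI. Most cells of the shallow lymphatic clusters, at median depths of 1294 and 1047 UMIs, were thus not counted in the thinned shares, and 41 of 82 and 62 of 90 of them had a Ccl21a UMI unthinned. Epithelial classes gave 0.538% (enterocyte-like, 2 of 372 thinned cells, median 30060 UMIs before thinning) and 0.285% (colonocyte-like, 1 of 351, median 25814 UMIs).

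The low counts elsewhere were also set against Mmrn1. For each 100 Mmrn1 UMIs, a lymphatic marker, small intestinal lymphatic endothelial-like cells held 54.2 Ccl21a UMIs, B-like cells 54.5, Paneth-like cells 44.6, cycling cells 69.7, goblet-like cells 100 and macrophage-like cells 25.0. In the large intestine the same quantity was 196 in lymphatic endothelial-like cells, 162 in cycling cells, 160 in colonocyte-like cells, 100 in goblet-like cells and 42.3 in macrophage-like cells. Some classes thus lay near the proportion of the lymphatic cells and others did not, but several ratios rest on few UMIs. Small intestinal B-like cells held 6 Ccl21a and 11 Mmrn1 UMIs, and goblet-like cells 17 of each. Large intestinal colonocyte-like cells held 16 and 10. Macrophage-like cells lay below the lymphatic proportion in both tissues, with 14 against 56 and 22 against 52 UMIs. The part of free RNA in these low levels was not tested.

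Between the tissues the log2 ratio of small over large intestine in lymphatic endothelial-like cells was -1.70 (-1.76 to -1.64). Of 6732 genes tested in that class, 3.58% were at least 2-fold higher in the large intestine, and Ccl21a was the 1 member among them. In the other direction 9.22% of genes passed, with 1 member, Ccl25, whose 55 small intestinal UMIs in this class stood at 72.4 per 100 Fabp1 UMIs, close to other non-epithelial classes. Ccl21a differed just as widely among the clusters of 1 tissue. In the small intestine it was 3226 CPM in 178 cells led by Mmrn1, Lyve1 and Flt4, 3316 CPM in 88 cells led by Lyve1, Mmrn1 and Fgl2, and 904 CPM in 82 cells led by Reln and Mmrn1. In the large intestine it was 11468 CPM in 117 cells and 2562 CPM in 90 cells. The low cluster of each tissue was also the shallow one, with median depths of 1294 and 1047 UMIs against 3069 to 4295 in the others, and the part of depth in this difference was not tested.

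The promoter of Ccl21a is shown because its low CpG content (5 CpG, 53.7% GC) sets it apart from that of the other endothelial ligand, Cxcl12 (20 CpG, 64.7% GC, chr6:117168285-117168584). The window runs from 250 bases before to 50 bases after the annotated start (RefSeq, GRCm38.p6, chr4:42773942-42774241, minus strand, 5′ to 3′), and none of the 3 motifs searched is in it.
Ccl21a promoter: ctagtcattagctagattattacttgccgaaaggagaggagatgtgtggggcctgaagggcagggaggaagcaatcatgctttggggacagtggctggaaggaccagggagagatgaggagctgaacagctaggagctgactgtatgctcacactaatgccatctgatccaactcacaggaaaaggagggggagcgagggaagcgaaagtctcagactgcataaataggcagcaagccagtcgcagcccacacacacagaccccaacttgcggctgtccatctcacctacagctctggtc
The motifs were TATAAA, the kappaB form GGGNNNNNCC and TTTATNG, a form bound by caudal-type homeobox proteins, each on both strands. Of 32851 promoters of this length, 13.6% hold the first, 50.8% the second and 10.9% the third. Of the 10 members, 8 matched the promoter table.

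Ccl19 (ENSMUSG00000071005, chr4:42754525-42756365), the second CCR7 ligand, was scarce. The kept cells held 7 UMIs in the small and 8 in the large intestine, of which fibroblast-like cells held 3 and 7. At 5.89 and 2.53 CPM these levels allow no ranking of classes.

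CCR7 is the shared receptor of these ligands, and Ccr7 (ENSMUSG00000037944, chr11:99144199-99155077) was highest in B-like cells. The level was 173 CPM in the small intestine (148 to 200, 181 UMIs in 302 cells) and 344 CPM in the large intestine (287 to 410, 125 UMIs in 123 cells). Thinned to 2000 UMIs, 27.0% (21.8 to 32.7) and 39.3% (29.95 to 49.2) of B-like cells had a UMI, against 0 of 372 enterocyte-like (upper limit 0.987%) and 0 of 351 colonocyte-like cells (upper limit 1.05%). Unthinned shares were 33.4% and 52.0%, at median depths of 2803 and 2644 UMIs. The log2 ratio between tissues was -0.996 (-1.33 to -0.66), just short of 2-fold. The classes differ in make-up, since the small intestinal class holds 20 cells led by Ms4a1 and Mef2b and the large intestinal class is a single cluster. Without those cells, a comparison added after seeing the data, the ratio was -0.65, and those of Cxcr4 and Cxcr5 were 0.11 and 0.07. T-like cells followed at 94.5 CPM (23 UMIs) and 106 CPM (21 UMIs), with a ratio of -0.17.

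Ccr7 was uneven within the B-like and dendritic-like classes. Of the small intestinal B-like clusters, those led by Ighd, a gene of naive B cells, and by Ebf1, a B lineage factor, held 238 and 188 CPM, and the 20 cells led by Ms4a1 and Mef2b, a germinal centre gene, held 0 UMIs. The dendritic-like class is not the same in the 2 tissues. The 49 small intestinal cells form a cluster led by Lyz2, Retnla and S100a4, with the monocyte receptor Ccr2 also among its leading genes, and the 39 large intestinal cells a cluster led by Cst3, Lsp1 and Napsa. A large intestinal cluster led by Retnla, Lyz2 and Lyz1 stayed unnamed. In dendritic-like cells the receptor sat in few cells, with 11 UMIs in 3 of 49 small intestinal cells and 29 UMIs in 2 of 39 large intestinal cells. Of the 7 markers of mature dendritic cells, those cells carried a median of 2 against 1 in the small intestine and 4.5 against 1 in the large intestine. The highest count of markers in a cell was 7 and 6 with Ccr7, and 3 in both tissues without it. With a median of 2, most of the 3 small intestinal cells with Ccr7 lay within the range of the cells without it.

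Cxcl12 (ENSMUSG00000061353, chr6:117168535-117181368) was the second abundant stromal ligand, and its levels in blood endothelial-like and fibroblast-like cells lay close together in the 2 tissues. Blood endothelial-like cells held 1949 CPM in the small intestine (1733 to 2184, 296 UMIs in 40 cells) and 2051 CPM in the large intestine (1913 to 2197, 816 UMIs in 87 cells), with a log2 ratio of -0.07 (-0.27 to 0.12). Fibroblast-like cells held 897 CPM (816 to 983, 457 UMIs in 73 cells) and 775 CPM (743 to 809, 2146 UMIs in 365 cells), with a ratio of 0.21 (0.06 to 0.36). The gap from blood endothelium to fibroblasts was 1.12 and 1.40 on the log2 scale. Lymphatic endothelial-like cells held 93.8 and 56.3 CPM, with a ratio of 0.74 (0.16 to 1.35). The endothelial order was thus the reverse of that of Ccl21a, with blood above lymphatic vessels. Epithelial and unnamed clusters together held 0.441 and 0.719 CPM.

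CXCR4 is the signalling receptor, and Cxcr4 (ENSMUSG00000045382, chr1:128588199-128592299) was highest in B-like cells in both tissues. Its level there was 237 CPM in the small (208 to 268, 248 UMIs) and 254 CPM in the large intestine (204 to 311, 92 UMIs), with a log2 ratio of -0.10. T-like cells held 49.3 and 45.6 CPM. Dendritic-like cells held 44.5 and 46.4 CPM, values that are not compared because the clusters differ in their leading genes, as described for Ccr7. Among small intestinal B-like clusters the order was 318, 195 and 103 CPM, the lowest being the Mef2b-led cells that had no Ccr7. Macrophage-like cells held 29.4 CPM (17 UMIs) in the small and 68.2 CPM (67 UMIs) in the large intestine, a log2 ratio of -1.21 (-2.07 to -0.43). Of 5274 genes tested in that class, 7.03% were at least 2-fold higher in the large intestine, and 2 members were among them, Cxcr4 and Cxcl12. The Cxcl12 count there was 4 against 25 UMIs, and 10 of the 25 came from 1 cell.

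Ackr3 (ENSMUSG00000044337, chr1:90203980-90215724), the atypical CXCL12 receptor, was carried by the stroma rather than by leukocytes, and its order of classes differed between the tissues. Lymphatic endothelial-like cells were highest, at 160 CPM in the small intestine (139 to 184, 198 UMIs) and 306 CPM in the large intestine (262 to 355, 174 UMIs), a log2 ratio of -0.93 (-1.24 to -0.63). Fibroblast-like cells held 31.4 CPM in the small intestine (17.9 to 51.0, 16 UMIs) and 221 CPM in the large intestine (204 to 239, 611 UMIs). The tissue ratio was -2.81 (-3.63 to -2.10). Of 7523 genes tested in fibroblast-like cells 10.4% were at least 2-fold higher in the large intestine, and Ackr3 was the 1 member among them. Blood endothelial-like cells held 72.4 CPM (11 UMIs) and 143 CPM (57 UMIs), with a ratio of -0.98 (-2.07 to -0.04), short of 2-fold.

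Epithelial and unnamed clusters held far less Ackr3, and the same direction was seen there. Their level was 0.441 CPM with 20 UMIs in the small and 2.54 CPM with 282 UMIs in the large intestine, a log2 ratio of -2.52 (-3.26 to -1.87). Of 14885 genes tested in these clusters 16.8% were at least 2-fold higher in the large intestine, Ackr3 being the 1 member. The highest level among them in the large intestine was 9.36 CPM (3.04 to 21.9, 5 UMIs). It was in the shallow unnamed cluster led by Pbsn and Tgm4, genes of other organs, so it is not a level of gut epithelium. The next clusters held 6.73 CPM (23 UMIs) and 5.74 CPM (51 UMIs), against 110 to 306 CPM in the endothelial-, fibroblast- and smooth muscle-like classes of that tissue.

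**Figure D2:**
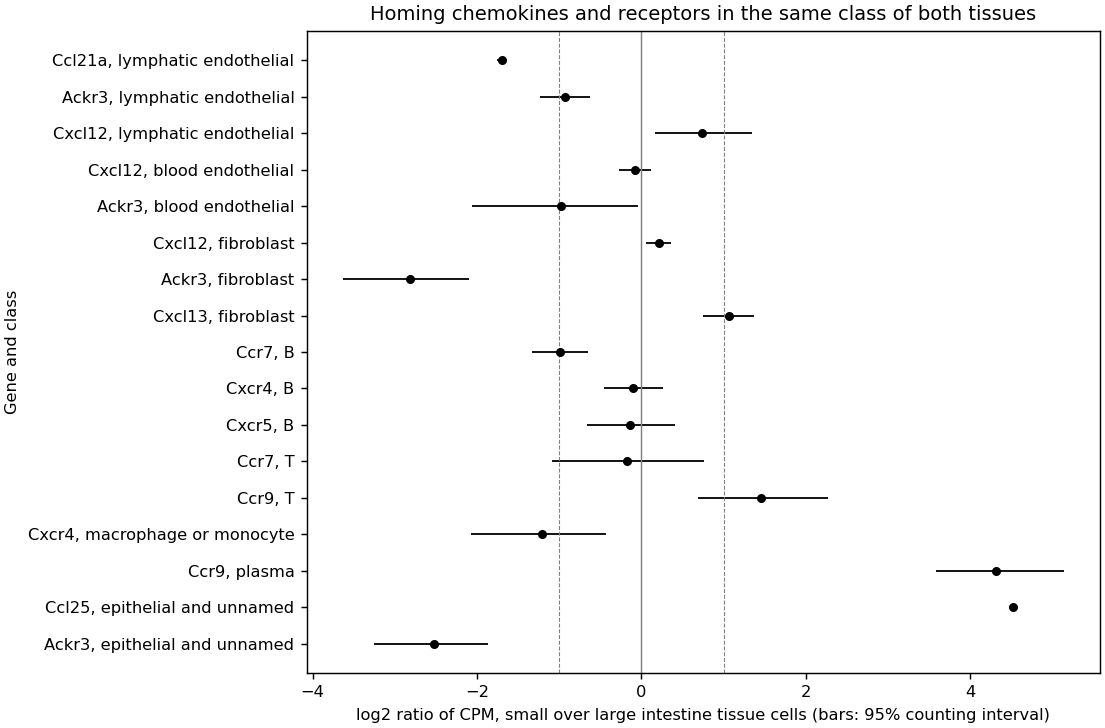
Log2 ratio of small over large intestine for 17 pairs of member and cell class in the dissociated cell libraries, with 95% counting intervals as bars and dashed lines at 2-fold in either direction. Ccl25 in the epithelium (4.53) and Ccr9 in plasma-like cells (4.31) lie farthest to the small intestinal side, and Ackr3 in fibroblast-like cells (-2.81) farthest to the large intestinal side.

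Levels of CXCL12 and its scavenger differed widely among the fibroblast-like clusters. In the large intestine the 19 cells led by Ogn and Ifitm1 held 2027 CPM of Cxcl12 (224 UMIs) and 0 UMIs of Ackr3, and all 19 had Cxcl12. The 29 cells led by Pi16 and Fbn1, genes of adventitial fibroblasts, held 4 UMIs of Cxcl12 and 628 CPM of Ackr3 (181 UMIs). Of those 29 cells, 26 had Ackr3 only and 3 had both. Clusters between these ends held both RNAs. The 111 cells led by Mgp and Adamdec1 had 1523 CPM of Cxcl12 and 124 CPM of Ackr3, with both in 52 cells and Cxcl12 only in 58. The 160 cells led by Dcn and Dpt had 349 and 234 CPM, with both in 54 cells and each alone in 44.

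In the small intestine no Ackr3-high fibroblast-like cluster was found among 73 cells. The 40 cells led by Adamdec1 and Sfrp1 held 1180 CPM of Cxcl12 and 5 UMIs of Ackr3, and the 33 led by Dcn and Col1a1 held 579 and 45.8 CPM. Endothelial-like cells with both RNAs were also found. In the small intestinal lymphatic cluster led by Mmrn1, Lyve1 and Flt4, 49 cells had Ackr3 only, 29 Cxcl12 only and 31 both. Of the 117 cells of the large intestinal cluster led by Lyve1 and Mmrn1, 62 had Ackr3 only, 5 Cxcl12 only and 15 both. Blood endothelial-like cells had Cxcl12 only in 26 of 40 small and 46 of 87 large intestinal cells, both in 9 and 30, and Ackr3 only in 0 and 4. These counts depend on depth, with a median of 3314 UMIs in the small intestinal blood endothelial-like cells.

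**Figure D3:**
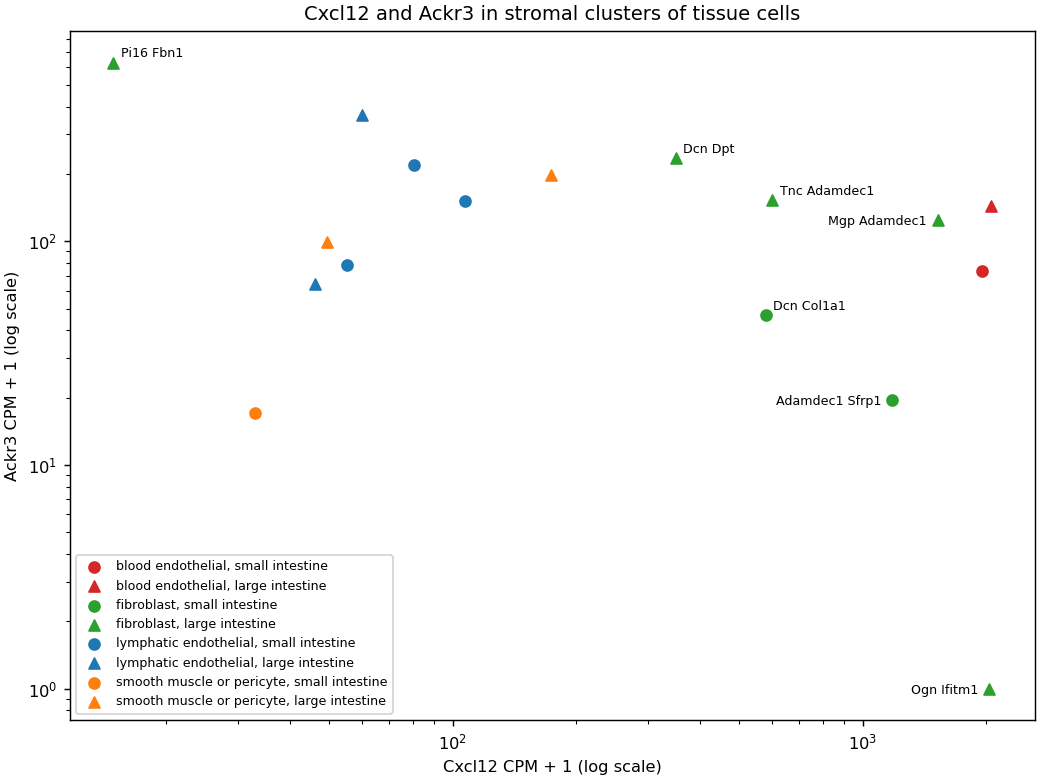
Cxcl12 against Ackr3 in each stromal cluster of both cell libraries, as CPM plus 1 on logarithmic axes; each point is a cluster (circles small, triangles large intestine, coloured by class), and fibroblast-like clusters carry the names of their 2 leading genes. The Pi16 and Fbn1 cluster lies at the Ackr3 end (628 CPM) and the Ogn and Ifitm1 cluster at the Cxcl12 end (2027 CPM).

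Cxcl13 (ENSMUSG00000023078, chr5:95956939-95961068), the B cell attractant, was found mainly in a minority of fibroblast-like cells. The level was 243 CPM in the small intestine (202 to 290, 124 UMIs in 25 of 73 cells) and 116 CPM in the large intestine (104 to 130, 322 UMIs in 51 of 365 cells). A single cell held 28 of the 124 and another 47 of the 322 UMIs. The log2 ratio of 1.06 (0.75 to 1.37) just passed 2-fold, and of 7523 genes tested 3.83% were at least 2-fold higher in the small intestine, Cxcl13 being the 1 member. The ratio rested on which clusters and cells were counted. It was 0.93 without the cell with the most UMIs, and -0.10 when only the clusters led by Adamdec1 or Mgp were compared. By cluster the level was 260 and 225 CPM in the small intestine, and 278 (Mgp and Adamdec1), 105 (Tnc and Adamdec1) and 36.9 CPM (Dcn and Dpt) in the large intestine.

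The small intestinal lead of fibroblast-like cells over the next class, 3.86 on the log2 scale, was 0.23 and 0.18 under the strict and loose cell filters and 0.34 with the second clustering at resolution 1. Outside fibroblasts, 1 small intestinal cycling cell held 183 of the 185 Cxcl13 UMIs of its class. With that cell the epithelial and unnamed clusters differed by a log2 ratio of 3.42, at 4.63 against 0.432 CPM, and without it by 0.56. Cxcr5 (ENSMUSG00000047880, chr9:44511787-44526444), the receptor of CXCL13 on follicular B cells, was held by B-like cells at 105 CPM in the small (86.0 to 127, 110 UMIs) and 116 CPM in the large intestine (83.4 to 156, 42 UMIs). The next class had 3 and 1 UMIs. The tissue ratio was -0.14.

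The Cxcl13 promoter is shown because it holds both a match to the kappaB form, whose letters are met on each strand (bases 188 to 197 of the window), and a TATAAA match (bases 205 to 210), in capitals. The window is on the plus strand of chr5:95956689-95956988 and has 3 CpG (RefSeq, GRCm38.p6, 5′ to 3′).
Cxcl13 promoter: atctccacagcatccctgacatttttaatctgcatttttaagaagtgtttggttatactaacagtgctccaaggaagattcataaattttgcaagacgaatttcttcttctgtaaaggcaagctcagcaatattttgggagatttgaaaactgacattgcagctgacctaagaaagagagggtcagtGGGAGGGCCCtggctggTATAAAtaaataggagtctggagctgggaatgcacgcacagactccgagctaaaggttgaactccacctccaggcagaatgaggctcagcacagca

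Ccl25 (ENSMUSG00000023235, chr8:4325205-4360020) was the abundant epithelial ligand, with a gradient over the small intestinal classes. Enterocyte-like cells held 1403 CPM (1381 to 1426, 15056 UMIs), with 1468 CPM in the cluster led by Fabp1 and 1231 CPM in the ileal cluster led by Fabp6. Cycling cells held 453 CPM and stem-like cells 338 CPM. The gap of 1.63 on the log2 scale between enterocyte-like cells and the next class was lost, at -0.0119, when the first clustering was run at resolution 2. Secretory classes were lower, with 65.9 CPM in enteroendocrine-like, 38.0 in goblet-like, 32.1 in Paneth-like and 29.2 in tuft-like cells. After thinning, 86.3% of enterocyte-like (82.4 to 89.6) and 45.3% of stem-like cells (36.9 to 54.0) had a UMI. The unthinned shares, 95.2% and 97.8% at medians of 30060 and 20434 UMIs, did not show that order. In classes that should lack the gene the thinned share was 8.76% in B-like and 10.5% in lymphatic endothelial-like cells. An unnamed cluster led by Gsdmc4 and Gsdmc2 held 967 CPM.

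Non-epithelial classes of the small intestine held 17.4 to 72.4 CPM of Ccl25. Their counts stood at 35.0 to 100 per 100 Fabp1 UMIs, an enterocyte gene, against 27.8 in enterocyte-like cells and 1695 in stem-like cells. The part of free RNA in them was not tested. In the large intestine Ccl25 was lower but uneven among clusters. Colonocyte-like cells held 39.2 CPM, with 77.2 CPM in the cluster led by Cyp2c55 and Fabp6 and 16.9 CPM in the cluster led by Saa1 and Tgm3. The 278 UMIs of the Cyp2c55-led cluster sat in 34 of 139 cells, with 53 in 1 cell. The highest cluster level was 114 CPM (62.5 to 192), in 36 unnamed cells led by Fabp6 and Lgals2. It rests on 14 UMIs in 8 cells. Over all epithelial and unnamed clusters the level was 568 CPM in the small and 24.6 CPM in the large intestine, a log2 ratio of 4.53 (4.47 to 4.58). Of 14885 genes 9.37% were at least 2-fold higher in the small intestine there, and 3 members were among them, Ccl25, Ccr9 (0.551 against 0.0719 CPM) and Cxcl13.

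RefSeq lists 2 starts for Ccl25, and their promoters are unlike. The upstream window (chr8:4324960-4325259) has 52 CpG and 74.0% GC and no match to the 3 motifs. The downstream window (chr8:4349338-4349637, plus strand) has 1 CpG and 51.7% GC. It is shown because it alone holds TTTATNG among the windows of the 8 members found in the promoter table. The match is on the minus strand at bases 234 to 240, overlapping a TATAAA match at bases 235 to 240 (capitals). The counts do not tell which start was used.
Ccl25 downstream promoter: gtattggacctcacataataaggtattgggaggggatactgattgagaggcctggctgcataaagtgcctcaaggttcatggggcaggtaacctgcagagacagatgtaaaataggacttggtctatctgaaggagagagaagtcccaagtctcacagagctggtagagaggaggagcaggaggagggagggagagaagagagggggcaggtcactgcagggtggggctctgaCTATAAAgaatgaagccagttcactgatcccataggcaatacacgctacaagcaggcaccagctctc

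CCR9 is the CCL25 receptor, and Ccr9 (ENSMUSG00000029530, chr9:123767211-123783457) was found mainly in 3 leukocyte classes of the small intestine. The highest level was in a cluster of 16 small intestinal plasmacytoid dendritic-like cells, below the minimum of 20 cells for ranking, at 1349 CPM (1146 to 1577, 157 UMIs), with a UMI in 15 of 16 cells. T-like cells held 263 CPM in the small (203 to 336, 64 UMIs in 64 cells) and 96.2 CPM in the large intestine (57.9 to 150, 19 UMIs in 58 cells). Plasma-like cells held 58.0 CPM in the small (48.4 to 68.9, 130 UMIs in 88 cells) and 2.92 CPM in the large intestine (17 UMIs in 290 cells). The unlike dendritic-like clusters of the small and large intestine held 40.6 and 46.4 CPM, with no comparison made, and B-like cells of the small intestine had 2 UMIs. The gap of T-like cells to the next ranked class in the small intestine was 2.18 on the log2 scale, and 0.05 under a looser cell filter.

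Ccr9 also differed between the tissues within matched classes. In T-like cells the log2 ratio was 1.45 (0.69 to 2.27), and of 2051 genes tested 12.9% were at least 2-fold higher in the small intestine, Ccr9 being the 1 member. In plasma-like cells it was 4.31 (3.58 to 5.14), and 2.31% of 7354 genes passed, with 2 members, Ccr9 and Ccl25. The Ccl25 count in plasma-like cells, 39 UMIs, stood at 68.4 per 100 Fabp1 UMIs, within the range of the other non-epithelial classes. Thinned to 2000 UMIs, 5.68% of small intestinal (1.87 to 12.8) and 0.699% of large intestinal plasma-like cells (0.0848 to 2.50) had a Ccr9 UMI. Without thinning the shares were 63.6% and 5.17%, at medians of 25170 and 19755 UMIs. For comparison, 1 of 372 enterocyte-like cells (0.269%) and 0 of 351 colonocyte-like cells had one after thinning.

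Other receptors and adhesion genes of the same cells, from lists of 18 receptors, 31 ligands and 18 homing and lymphoid organiser genes, did not share 1 direction. In plasma-like cells Ccr10, the receptor for CCL28, had 325 CPM in the small and 407 CPM in the large intestine (log2 ratio -0.32), opposite in sign to Ccr9. Gpr15, a receptor for homing to the large intestine, was at 1.34 and 6.87 CPM, and Ltb, a lymphoid organiser, at 25.4 and 3.09 CPM. In T-like cells Itgae, the integrin chain that binds epithelial cadherin, was at 181 and 75.9 CPM (1.25), Cxcr6 at 119 and 127 CPM (-0.09), and Cxcr3 at 32.9 and 137 CPM (-2.06). Of the 7 homing genes tested in T-like cells 1 was at least 2-fold higher in the small and 1 in the large intestine, Klf2, with a list median of -0.37 against 0.15 over all genes. In plasma-like cells the 7 tested gave 1 and 3, with a median of -0.59 against -0.43 over all genes. Over all genes 3.71% in T-like and 16.2% in plasma-like cells were at least 2-fold higher in the large intestine, with 0 of the 10 chemokine and receptor members in either set.

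By a rule of likeness, the 3 genes whose levels across 30 classes (15 per tissue) correlated most with each member were taken out of 13035 genes, and most of them are named here. Pearson's r is given as a description, since the classes share libraries and depth. For Ccl21a they were Tbx1 (0.981), Sh3gl3 (0.981) and Ackr2 (0.975), and for Cxcl12 Igfbp7 (0.966), Hspg2 (0.956) and Pdgfd (0.956). Cxcr5 was followed by Pax5 (0.981), Fcer2a (0.971) and Ighd (0.968), and Ccr7 had Il21r (0.941) and Mirt1 (0.925) among its 3. Those of Ccl25 included Prap1 (0.941) and Otc (0.925). Ackr3 was nearest to Rhoj (0.971) and Cxcl13 to Mrc2 (0.962). Ccr9 had the weakest likeness of the members ranked, led by Ipcef1 (0.867), Klrd1 (0.859) and Cd8a (0.852).

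The organoids, from which epithelial cells were sorted, held Ccl25 and little of the other members. Ccl21a, Ccl19, Ccr7 and Cxcl12 were at 0 UMIs in the kept cells of both libraries, where 3 UMIs would correspond to 0.0310 CPM in the cocultured and 0.0693 CPM in the control library. Cxcr4, Cxcr5, Cxcl13 and Ccr9 had 3, 1, 9 and 20 UMIs in cocultured and 0, 0, 5 and 12 in control cells. Ackr3 had 14 UMIs in control cells, all in 1 cell. Ccl25 was at 312 CPM in cocultured (30271 UMIs) and 163 CPM in control cells (7046 UMIs), a log2 ratio of 0.94 (0.90 to 0.98) that stayed under 2-fold. It had a UMI in 87.8% of cocultured and 73.8% of control cells, at median depths of 86295 and 73664 UMIs. Of 13075 genes tested 2.81% were at least 2-fold higher in cocultured and 4.17% in control cells, and 0 members were in either set.

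Of the 31 other chemokine ligands 9 had enough UMIs in the organoids, and 1 was higher with coculture (Cxcl1, 1.05) and 1 lower (Cxcl16, -1.50), with a median of -0.04 against -0.09 over all genes. Of the homing and lymphoid organiser genes 7 were tested, 2 being higher, the integrin chains Itga4 (2.26) and Itgb7 (1.10), and 3 lower, among them Klf2 (-1.17) and Tnfsf13b (-1.57). With 1 library per condition these values describe the libraries.

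The tissue sections gave a second view of the same genes, without dissociation or sorting. A gene was counted as different there when the means of the 2 sections differed at least 2-fold, the higher tissue held at least 20 UMIs and the sections did not overlap. In spots, fewer cells of a type and less RNA per cell cannot be told apart. By this rule 5 members were higher in the large intestine (Ccl21a, Ccr7, Cxcl12, Cxcl13, Cxcr5), where 14.5% of 16184 genes were, and 2 in the small intestine (Ccl25, Ccr9), where 15.7% were. Leaving mitochondrial and ribosomal protein genes out of the totals shifted the median log2 ratio of all genes by -0.15.

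**Figure D4:**
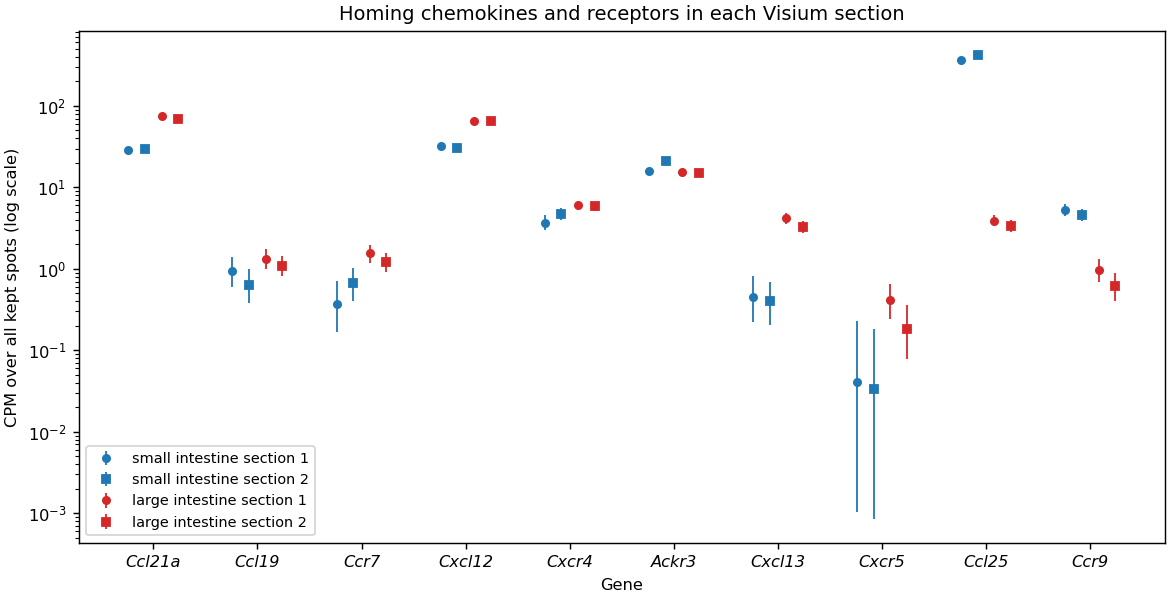
Level of each member in each Visium section as CPM on a logarithmic axis, with 95% counting intervals as bars; small and large intestine are shown by colour, with 2 sections each. Ccl25 and Ccr9 lie higher in both small intestinal sections, and Ccl21a, Ccr7, Cxcl12, Cxcl13 and Cxcr5 in both large intestinal sections. The Ackr3 levels lie close together, and the counting interval of small intestinal section 1 overlaps those of the large intestine.

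Small intestinal sections held 29.0 and 29.9 CPM of Ccl21a and large intestinal sections 75.1 and 68.6 CPM, 2.44-fold apart, with a UMI in 15.6% and 13.7% against 36.6% and 35.98% of spots. The duplicates lay close together relative to the tissues. Cxcl12 was at 32.1 and 30.5 against 64.5 and 64.4 CPM, 2.06-fold apart. With a mean over spots in place of summed UMIs its log2 ratio of -1.04 became -0.95, short of 2-fold. Cxcl13 was at 0.452 and 0.399 against 4.17 and 3.26 CPM (11, 12, 172 and 143 UMIs), 8.74-fold apart, the opposite sign of its fibroblast ratio in cells.

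The small intestinal sections had 0.370 and 0.665 CPM of Ccr7, below the 1.55 and 1.21 CPM of the large intestine (log2 ratio -1.42). Cxcr5 rested on 1 and 1 against 17 and 8 UMIs, and without large intestinal section 1 its ratio, with counts under 3 set to 3, went from -1.42 to -0.71. Ccl19, at 0.944 and 0.631 against 1.33 and 1.10 CPM (-0.62), and Cxcr4, at 3.70 and 4.69 against 6.01 and 5.86 CPM (-0.50), were higher in both large intestinal sections by less than 2-fold. Ackr3, at 15.8 and 21.0 against 15.6 and 14.9 CPM (0.27), showed no counterpart of its fibroblast difference.

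Ccl25 had the widest range, at 365 and 420 against 3.90 and 3.40 CPM (107-fold), with a UMI in 79.6% and 77.6% against 7.12% and 6.38% of spots. Ccr9 was at 5.34 and 4.59 against 0.970 and 0.616 CPM (6.26-fold, 130, 138, 40 and 27 UMIs). For Ccl25 and Ccr9 both ligand and receptor passed the rule towards the small intestine, and for Ccl21a and Ccr7 and for Cxcl13 and Cxcr5 both passed it towards the large intestine. The Cxcr5 ratio fell short of 2-fold without large intestinal section 1. Cxcl12 passed towards the large intestine without either of its receptors, Cxcr4 and Ackr3, and Ccr7 passed without its second ligand, Ccl19.

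Among the other chemokine ligands, 27 of 31 were tested in the sections, and 4 were higher in the small and 6 in the large intestine, where the rule called 15.7% and 14.5% of all genes. Their median was -0.22 against -0.02 over all genes. Ccl24, an eosinophil attractant, was at 7.27 and 5.85 against 0.848 and 0.707 CPM. Ccl28, the mucosal ligand of CCR10, was at 13.0 and 9.47 against 93.6 and 90.2 CPM, and Ccl8 at 22.2 and 19.0 against 139 and 131 CPM. Of the other receptors 12 of 18 were tested, with 0 higher in the small and 5 in the large intestine and a median of -0.64, among them Ccr10 (-1.40) and Cxcr3 (-1.93). Of the homing and organiser genes 16 of 18 were tested and 0 passed in either direction (median 0.13), the extremes being Itgae (0.98) and Ch25h (-0.91).

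Spots were then grouped by their content. Clustered regions are named by their leading genes, and spots were also divided by whether they held a UMI of a marker list, after thinning each spot to 2000 UMIs. Ccl21a followed the lymphatic list (Lyve1, Prox1, Mmrn1, Flt4, Reln) in all 4 sections. Spots with the list held 51.5 and 43.6 Ccl21a UMIs per 100 spots in the small intestine, against 4.35 and 5.31 in spots without it. In the large intestine the values were 164 and 94.9 against 12.0 and 13.5. The log2 ratios were 3.57 and 3.04, then 3.77 and 2.81. Ratios for the crypt list (Lgr5, Ascl2, Olfm4, Slc12a2, Cdca7, Gkn3) were 1.31 and 1.48 in the small and 0.47 and 0.45 in the large intestine, and for the blood endothelial list 1.39, 1.13, 1.13 and 0.97.

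By region, Ccl21a reached 587 CPM in 351 large intestinal spots led by Mmrn1, Mgp and Id4 (2932 UMIs) and 307 CPM in 185 small intestinal spots led by Mgp, C4b and Col14a1 (502 UMIs). Large intestinal spots led by Actg2, a smooth muscle actin, held 263 CPM. In the small intestine the region led by Defa22, a defensin of Paneth cells at the crypt base, held 82.3 CPM of Ccl21a, 68.2 CPM of Cxcl12 and 33.1 CPM of Ackr3. The Mmrn1-led large intestinal region also held Ccl19 at 9.21 CPM (46 UMIs), Ccr7 at 8.81 CPM (44 UMIs) and Cxcl12 at 160 CPM.

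Cxcl12 and Ackr3 followed the lymphatic list more weakly than Ccl21a. For Cxcl12 the log2 ratios were 0.74 and 0.66 in the small and 1.12 and 1.34 in the large intestine, and for Ackr3 1.32, 1.55, 1.42 and 1.25. In the small intestine both also followed the crypt list, Cxcl12 with 1.19 and 0.99 and Ackr3 with 0.75 and 0.96, and the large intestinal ratios were 0.22 and 0.29, and 0.36 and -0.04. The 37 large intestinal spots led by Cfd, Retnla and Pi16 held the highest Ackr3, 133 CPM with 56 UMIs. Pi16 also led the Ackr3-high fibroblast-like cluster of the dissociated large intestine.

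Ccl25 ran against the crypt list in the small intestine, with log2 ratios of -0.80 (-0.96 to -0.64) and -0.65 (-0.79 to -0.52). Its regional levels ran from 47.6 CPM in 18 spots led by Hbb-bs and 69.8 CPM in the region led by Actg2 to 831 CPM in 368 spots led by Ms4a18, Mcpt1 and Plet1. Between these lay 106 CPM in the Defa22-led region, 250 CPM in the region led by Ube2c, a cell cycle gene, and 601 CPM in the region led by Cubn and Sis. In the dissociated cells too, stem-like and cycling cells lay below enterocyte-like cells. Ccr9 was highest by count in the small intestinal region led by Iglc1, Jchain and Igha, immunoglobulin genes of plasma cells, at 21.6 CPM (90 UMIs).

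Few spots were rich in B cell RNA, and the division below was added after seeing the data. Spots with 5 or more UMIs of the B cell list (7 markers, among them Cd79a, Cd79b, Ms4a1 and Cr2) numbered 4 and 7 in the small and 17 and 19 in the large intestinal sections. In large intestinal section 1 these 17 spots held Ccl21a at 804 CPM (253 UMIs), Ccl19 at 54.0 (17), Ccr7 at 44.5 (14), Cxcl13 at 149 (47), Cxcr5 at 25.4 (8) and Cxcr4 at 76.3 CPM (24). Spots of the same section without a list UMI held 63.9, 0.988, 1.24, 2.76, 0.124 and 4.41 CPM of the same genes. Cxcl12 was at 140 (44 UMIs) against 57.2 CPM and Ackr3 at 54.0 (17) against 14.7 CPM, so these 8 members were higher in the B-rich spots of that section. Ccl25 (1 UMI) and Ccr9 (0 UMIs, which allows up to 11.7 CPM) were too few there to compare.

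Levels in the B-rich spots of section 2 of the large intestine were lower. Its 19 such spots held Ccl21a at 255 CPM (115 UMIs) and Cxcr4 at 22.2 CPM (10), against 59.4 and 4.98 CPM without the list. Ccl19 and Ccr7 had 2 UMIs each there, 4.43 CPM against 0.943 and 0.980 CPM without the list, and Cxcl13 had 4 UMIs, 8.87 against 3.05 CPM. Cxcl12 was at 115 (52) against 57.9 CPM and Ackr3 at 28.8 (13) against 14.5 CPM. Cxcr5 had 0 UMIs, so the technical duplicate did not repeat the Cxcl13 and Cxcr5 levels of section 1. In small intestinal section 2 the 7 B-rich spots held Cxcl13 at 33.0 CPM (6 UMIs) against 0.116 CPM, Ccr7 at 22.0 (4) against 0.425 CPM and Cxcr4 at 38.5 (7) against 4.10 CPM, with 0 UMIs of Ccl19 and Cxcr5. The same spots held Ccr9 at 38.5 CPM (7, 15.5 to 79.3) against 3.40 CPM, Cxcl12 at 76.96 (14) against 29.998 CPM and Ackr3 at 65.96 (12) against 20.4 CPM, but Ccl21a at 5.50 (1) against 27.4 CPM. In small intestinal section 1 the 4 such spots held 10 Ccl21a UMIs (105 against 26.3 CPM), 6 of Cxcl12, 3 of Ackr3, 1 UMI each of Ccr7 and Cxcr4, and 0 of Ccl19, Cxcl13, Cxcr5 and Ccr9. A small intestinal region of 9 spots (2 and 7 per section) led by Clu, Il22ra2 and Mfge8 held Cxcl13 at 127 CPM (9 UMIs), Ccr7 at 70.8 (5), Cxcr4 at 99.1 (7) and Ccr9 at 56.6 CPM (4).

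Ligand and receptor were also compared in the same spots. In the large intestine 3.52% of spots with Ccl21a had a Ccr7 UMI (27 of 766, 2.34 to 5.09) against 1.58% of spots without it (0.981 to 2.41) in section 1, and 3.95% (31 of 784, 2.70 to 5.57) against 1.00% (0.550 to 1.68) in section 2. The spots with the ligand were the shallower, at medians of 14476 against 21666 and 16114 against 22333 UMIs. In the small intestinal sections only 3 of 327 and 2 of 352 spots with Ccl21a had a Ccr7 UMI. Thinned to 2000 UMIs the large intestinal shares were 1.18% (3 of 254, 0.244 to 3.41) against 0.328% (0.120 to 0.712) in section 1. In section 2 they were 1.47% (4 of 272, 0.402 to 3.72) against 0.106% (0.0128 to 0.381). For Ccl19 and Ccr7 the shares with and without the ligand were 22.2% (8 of 36, 10.1 to 39.2) and 1.94% (1.39 to 2.64) in section 1, and 8.33% (3 of 36, 1.75 to 22.5) and 1.96% (1.42 to 2.64) in section 2. Thinned, they were 11.1% (1 of 9) and 0.386% in section 1 and turned to 0 of 8 against 0.278% in section 2.

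The CXCL12 pairs were mixed. Ackr3 was found in 20.7% and 26.9% of small intestinal spots with Cxcl12 against 14.3% and 17.0% without, and in 26.5% and 25.7% against 19.2% and 20.0% of large intestinal spots. Here the spots with the ligand were the deeper, and after thinning the shares were 7.10% and 6.88% against 3.88% and 6.14%, and 8.54% and 4.59% against 3.43% and 2.87%. Cxcr4 was found in 4.99%, 7.19%, 11.2% and 11.6% of spots with Cxcl12 against 3.46%, 3.60%, 7.65% and 7.85% without, a difference that changed sign after thinning in 3 of the 4 sections. Those 3 signs rest on 1 of 155, 1 of 160 and 2 of 283 spots with Cxcl12. The counting intervals of these shares include the shares without the ligand, so no direction can be read from them. Ccr9 was found in 5.76% and 4.91% of small intestinal spots with Ccl25 against 4.22% and 2.09% without, and after thinning the differences were 0.0392 and 0.00936 percentage points. Cxcl13 and Cxcr5 shared 4 of 123 Cxcl13 spots in large intestinal section 1 and 1 of 126 in section 2.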

How the data were processed

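Per the file headers, the deposited matrices hold raw UMI counts written by Cell Ranger 6.0.1 (organoids and dissociated tissue) and Space Ranger 1.2.1 (sections). The submitters' processing notes name mm10. The authors' cell filters and annotation are not given in the sources used here. Barcodes under 500 genes or above 20% mitochondrial UMIs were dropped, and the top-scoring doublets were removed at 0.8% per 1000 cells. Spots needed 500 UMIs. Clustering used scanpy 1.11.5 and leidenalg 0.10.2 (2000 variable genes without the members, 30 components, 15 neighbours, resolution 1, and resolution 2 for a second clustering of the non-epithelial cells), with numpy 2.4.6, scipy 1.17.1 and scikit-learn 1.9.0 under Python 3.11.15. Counts under 3 were set to 3 in ratios, whose intervals are exact conditional Poisson intervals. The rule of a 2-fold difference with 20 UMIs in the higher group was also run on simulated Poisson counts. These carry counting error only, with no variation between cells, sections or animals. Of 200 genes changed 4-fold, 100% were recovered in each comparison. Of unchanged genes, 2.58% of 6402 were called in lymphatic endothelial-like cells, 0.584% of 12847 in organoids and 0.344% of 15707 in sections. Named genes were the members, the 3 most alike genes of each, and for each list the 3 tested genes highest and the 3 lowest in the ratio. A few genes that the rule selects are not reported here. Members and lists were chosen with earlier results of these data known. Reads shared with near-identical Ccl21 and Ccl19 copies are uncertain. Tissue libraries carry 2 added features that were not used. The depth of each library is in the report. Alternatives covered filters, doublets, clustering, scaling, thinning and left-out sections.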

Additional observations from a re-analysis of the deposited data

Results flagged for a closer look

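In spots thinned to 2000 UMIs, Cxcr4 differed in sign between the tissues in its relation to the muscle list (Acta2, Myh11, Des, Actg2). The log2 ratio of spots with over spots without the list was -0.27 and -0.98 in the small intestinal sections and 0.0688 and 0.965 in the large intestinal sections, with counts under 3 set to 3. In small intestinal section 1 the spots without the list held 1 UMI, so its sign rests on that floor. All 4 counting intervals include 0, and the difference was not tested. Without thinning the large intestinal ratios were -1.16 and -0.18, so the difference in sign was not seen there, with 24 and 29 spots lacking the list.

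Near-identical copies of the CCL21 and CCL19 genes, which no comparison used, held a few UMIs, above the floor of 3 set in ratios. Ccl21b had 5 UMIs in the large intestine cells, Gm13306 had 4 in small intestinal section 2, and Gm21541 had 9 in the small intestine cells.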

How the results depend on the processing

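Over 105 results and 593 values under alternatives, 501 kept their direction and their side of the 2-fold rule or stayed within the error, 31 moved, 31 fell below the rule, 22 rose above it and 8 changed sign. Ccl25 in enterocyte-like cells stood 1.63 above the next class on the log2 scale and at -0.0119 with a first clustering at resolution 2. Cxcl13 between fibroblast-like cells went from 1.06 to 0.95 with the second clustering at resolution 1, to 0.93 without the top cell and to -0.10 with only the Adamdec1-led or Mgp-led clusters, alternatives chosen after seeing the data. Its small intestinal lead over the next class went from 3.86 to 0.23, 0.18 and 0.34 under the strict and loose cell filters and the second clustering at resolution 1, and that of Ccr9 in T-like cells from 2.18 to 0.05 under the loose filter. Ackr3 in lymphatic endothelial-like cells crossed 2-fold, at -1.10, without the clusters of low depth, also chosen after seeing the data.

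Thinning spots to 2000 UMIs changed the receptor differences, in percentage points, as follows. Ccl19 and Ccr7 in large intestinal sections 1 and 2 went from 20.3 and 6.37 to 10.7 and -0.278. Cxcl12 and Cxcr4 went from 1.53 and 3.59 in the small intestinal sections and 3.78 in large intestinal section 2 to -0.456, -0.523 and -0.780. The thinned values rest on 1 of 155, 1 of 160 and 2 of 283 spots with Cxcl12. Cxcl12 and Ackr3 went in the same sections from 6.39, 9.94 and 5.68 to 3.22, 0.735 and 1.73. Ccl25 and Ccr9 went from 2.82 in small intestinal section 2, and 1.61 and 0.409 in the large intestinal sections, to 0.00936, -0.145 and -0.0464. The 2 thinned large intestinal values rest on 0 of 16 and 0 of 10 spots with Ccl25 (upper limits 20.6% and 30.8%). Their signs therefore carry no information. The cause of the changes with thinning was not tested.

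Leaving out each section in turn left 4 to 5 members higher in the large and 2 in the small intestine. The log2 ratio ranged from -1.35 to -1.22 for Ccl21a, -1.90 to -1.05 for Ccr7, -3.29 to -2.94 for Cxcl13, -1.89 to -0.71 for Cxcr5, 6.64 to 6.85 for Ccl25 and 2.36 to 3.01 for Ccr9. Cxcl12 was at -0.95 with a mean over spots. No paired analysis was possible because no test was made between the technical duplicates. Depth limits Ccl19, Cxcr5 and Ccr7, which held 1 to 64 UMIs per section.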
